A study of Mus musculus with 4 samples.

Results

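The genes described are 9 members of a trans-synaptic adhesion system: the neurexins Nrxn2 and Nrxn3, the neuroligins Nlgn1, Nlgn2 and Nlgn3, and the neurexophilins Nxph1, Nxph2, Nxph3 and Nxph4. They were taken by name from the 31899 genes listed in all libraries, and each was followed singly through 7 classes of nuclei and 6 subclasses of GABAergic nuclei. Nuclei came from the microdissected posterior substantia innominata, a basal forebrain region, of wild-type mice aged 8 weeks, and their RNA was counted in droplets, in 2 male and 2 female libraries. Nothing in the labels tells if the 2 libraries of a sex are separate animals, so the p-values measure the spread between these libraries, which may be technical. The deposited matrices held 158132452 and 144035342 UMIs in male 1 and male 2, against 53098268 and 53679351 UMIs in female 1 and female 2.

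Neurexins are adhesion molecules of the presynaptic membrane, and neuroligins are their partners on the receiving cell. Nlgn1 is known chiefly from excitatory synapses, Nlgn2 from inhibitory ones, where it meets the scaffold gephyrin, and Nlgn3 from both. Neurexophilins are secreted glycoproteins that bind the extracellular part of alpha-neurexins. Glial cells also carry neuroligins and neurexins, and neuroligins of astrocytes are known to take part in shaping their processes.

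A nucleus was kept with 500 to 8000 genes and under 5% of UMIs from mitochondrial genes, and was classed by at least 2 UMIs of a pair of genes. Chat and Slc5a7 marked cholinergic nuclei, Gad1 and Gad2 the Gad class, Slc17a6 and Slc17a7 the Slc17a class of glutamatergic nuclei, and pairs of glial genes marked astrocytes, oligodendrocytes, oligodendrocyte precursors (OPCs) and microglia. Of 38868 kept nuclei, 21926 fell in a single class, 13591 in none, and 3351 in 2 or more classes and were left out. The Gad class was the largest, with 13549 nuclei, followed by 4560 oligodendrocyte, 1073 Slc17a, 819 astrocyte, 795 OPC, 754 microglial and 376 cholinergic nuclei. Gad nuclei were split further by Drd1, Drd2, Tshz1, Moxd1, Sst or Npsr1. Levels are given as UMIs per 1000000 UMIs (CPM) summed over the nuclei of a class in a library, and levels of different genes are not compared. Of the class markers that the rule did not use, most were highest in their own class. An exception was Slc32a1, which averaged 40.5 CPM in Gad nuclei and 42.2 CPM in microglia. The summed neuronal markers Rbfox3, Snap25 and Syt1 reached 4371 to 4469 CPM in male and 3776 to 4220 CPM in female Gad nuclei, yet they were also present in every glial class, for example at 1395 to 1571 CPM in male and 1548 to 1666 CPM in female oligodendrocytes. The ratio of these markers to their Gad level is given beside the glial results.

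**Figure D1:**
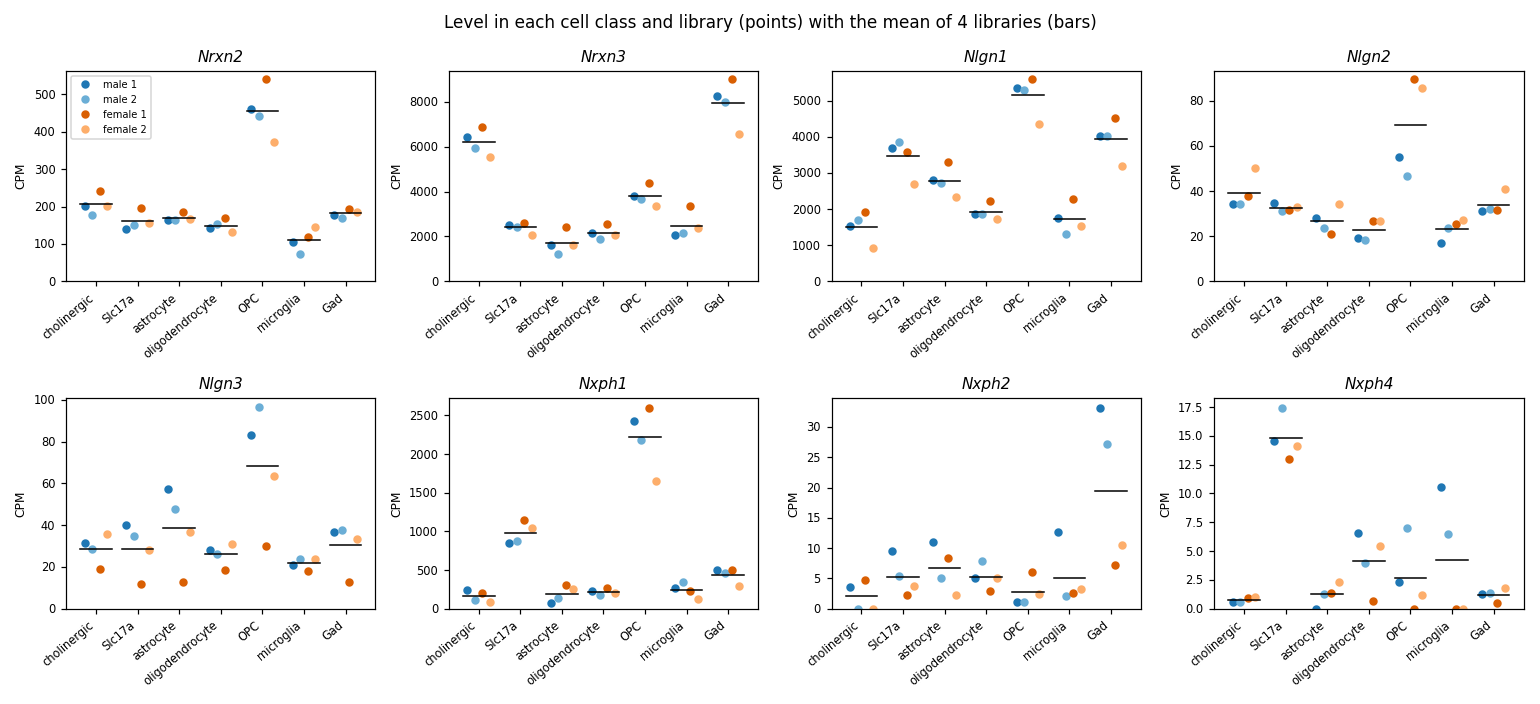
Level (CPM, linear axis) of 8 genes in the 7 classes of nuclei. Each point is a library, with the males left of the females in each class, and each bar is the mean of 4 libraries. Nxph1, Nrxn2, Nlgn1, Nlgn2 and Nlgn3 have their highest mean in OPCs, Nrxn3 and Nxph2 in Gad nuclei and Nxph4 in Slc17a nuclei.

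Of the 7 classes, OPCs, the dividing glial cells that give rise to oligodendrocytes, had the highest mean CPM of 5 of the 9 genes. Nxph1, Nrxn2, Nlgn3, Nlgn2 and Nlgn1 were higher in OPCs than in Gad nuclei, and Nrxn3 and Nxph2 were lower. These 7 of 8 tested members passed the test (quasi-likelihood test of edgeR, p adjusted after Benjamini and Hochberg over all genes), in a comparison in which 40.7% of all genes did. Nxph4 was tested and did not pass, and Nxph3 was too low to be tested in any comparison.

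Nxph1 stood at 2429 and 2184 CPM in male OPCs and at 2599.6 and 1649 CPM in female OPCs, against 496 and 456 CPM in male Gad nuclei and 497 and 292 CPM in female Gad nuclei. Every OPC value lay above every Gad value, and the log2 fold was 2.29 ± 0.08 (SE, adjusted p = 2.6e-17). OPCs ranked first of the 7 classes for Nxph1, and their range did not overlap that of the Slc17a class, which came next. For shares of nuclei with a UMI, nuclei were thinned to 2000 UMIs and shallower ones were left out, which kept 167 of 172 and 164 of 171 male OPCs and 121 of 151 and 196 of 301 female OPCs, and at least 2701 Gad nuclei in each library. Of these, 93.4% and 92.1% of male and 90.9% and 86.7% of female OPCs had at least 1 Nxph1 UMI, against 28.7% and 28.2% of male and 29.1% and 21.4% of female Gad nuclei. Without thinning these shares were 95.9% and 97.1% in male OPCs and 94.0% and 92.7% in female OPCs, at median depths of 4483 and 4351 UMIs in males and 2889 and 2324 UMIs in females. Microglia and oligodendrocytes gave thinned shares between 10.8% and 26.9% with an Nxph1 UMI. These rest on the nuclei that reached 2000 UMIs, which were 76 of 164 and 83 of 148 male and 52 of 168 and 80 of 274 female microglia, and 617 of 1015 and 526 of 954 male and 483 of 1204 and 451 of 1387 female oligodendrocytes.

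Nrxn2, a presynaptic neurexin, stood at 461 and 442 CPM in male and 539.8 and 373 CPM in female OPCs, against 178 and 170.5 CPM in male and 194 and 187 CPM in female Gad nuclei. OPCs ranked first with a range that overlapped no other class, and the log2 fold over Gad nuclei was 1.24 ± 0.09 (SE, adjusted p = 2.71e-11). The other 6 classes formed a graded order from cholinergic nuclei (mean 206 CPM) to microglia (mean 111 CPM), in which every neighbouring pair overlapped.

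Nlgn3, a neuroligin of excitatory and inhibitory synapses, stood at 83.1 and 96.6 CPM in male and 29.9 and 63.4 CPM in female OPCs, against 36.9 and 37.8 CPM in male and 12.8 and 33.4 CPM in female Gad nuclei. The OPC value was the higher one within each library, although the value of female 1 in OPCs lay below the other libraries' values in Gad nuclei. With the library as a block the log2 fold was 1.11 ± 0.14 (SE, adjusted p = 3.83e-07). Nlgn2, the neuroligin of inhibitory synapses, stood at 55.0 and 46.6 CPM in male and 89.6 and 85.7 CPM in female OPCs, against 31.3 and 32.1 CPM in male and 31.6 and 40.7 CPM in female Gad nuclei. No OPC value of Nlgn2 fell in the Gad range, and the log2 fold was 0.92 ± 0.15 (SE, adjusted p = 1.99e-05).

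Nlgn1, known from excitatory synapses, differed less between OPCs and Gad nuclei. Its values were 5359 and 5291 CPM in male and 5596 and 4351 CPM in female OPCs, against 4034 and 4020.0 CPM in male and 4532 and 3203 CPM in female Gad nuclei. The ranges overlapped because female 2 was low in both classes, but OPCs were higher in 4 of 4 libraries, with a log2 fold of 0.32 ± 0.07 (SE, adjusted p = 0.000646). Nrxn3 was lower in OPCs by the same test (log2 fold -1.12 ± 0.07 SE, adjusted p = 2.29e-12).

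In OPCs the neuronal markers stood at 0.231 and 0.257 of their Gad level in males and at 0.349 and 0.336 in females. Nrxn3 stood at 0.462 and 0.460 in males and at 0.490 and 0.513 in females, above the marker ratio in each library. The ratios of Nxph1 (at least 4.79), Nrxn2 (at least 2.00), Nlgn3 (at least 1.90), Nlgn2 (at least 1.45) and Nlgn1 (at least 1.23) were several times that of the neuronal markers in all 4 libraries. Nxph2 had only 1 to 3 UMIs per library in OPCs, and its log2 fold of -3.21 ± 0.45 (SE) became -2.59 without male 1 and -4.00 without female 1.

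**Figure D2:**
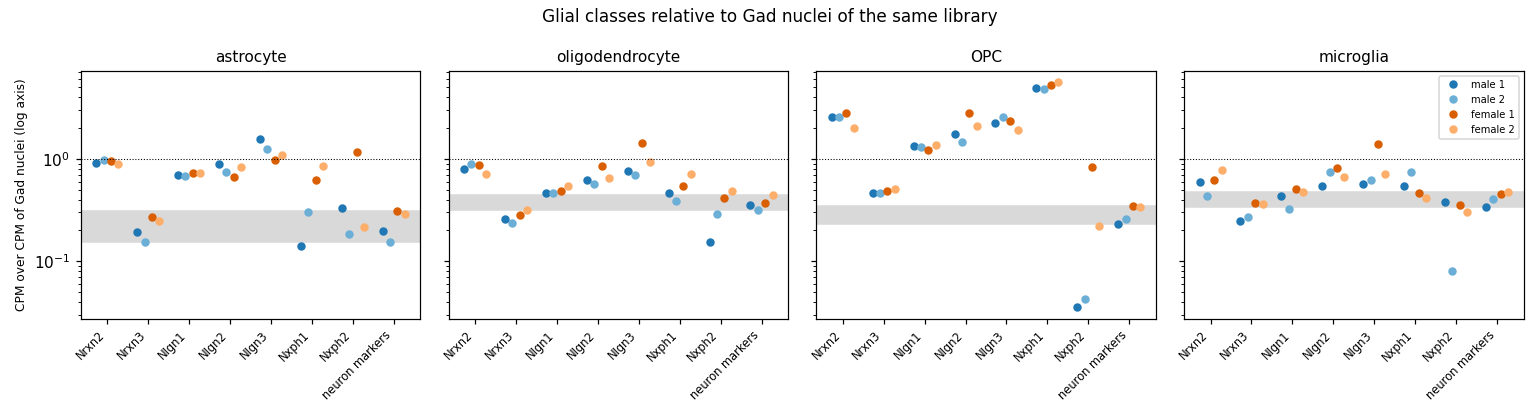
Ratio (log axis) of the CPM in a glial class to the CPM in Gad nuclei of the same library, for 7 genes and for the summed neuronal markers Rbfox3, Snap25 and Syt1. Points are libraries, males left of females, the grey band spans the 4 marker ratios and the dotted line marks equal levels. In OPCs, 5 genes lie above the dotted line in every library, and in oligodendrocytes Nrxn3 lies below the band in every library.

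In the other glial classes the members that passed were lower than in Gad nuclei, apart from Nxph4 in oligodendrocytes. Members that passed the test numbered 5 of 8 in astrocytes, 7 of 8 in oligodendrocytes and 7 of 8 in microglia, where 49.3%, 59.8% and 44.2% of all genes passed. Nrxn3 fell in each of them, with log2 folds of -2.37 ± 0.13 in astrocytes, -1.91 ± 0.09 in oligodendrocytes and -2.01 ± 0.14 in microglia (SE). In astrocytes Nrxn3 stood at 0.194 and 0.152 of its Gad level in males and at 0.272 and 0.247 in females, close to the neuronal markers, at 0.199 and 0.152 in males and 0.308 and 0.292 in females. In oligodendrocytes its ratio lay below that of the neuronal markers in each library (0.259 and 0.237 in males and 0.286 and 0.315 in females, against marker ratios of 0.352 and 0.319 in males and 0.367 and 0.441 in females). In microglia the Nrxn3 ratio (0.248 to 0.372) also lay below the marker ratio of each library (0.341 to 0.478). The contribution of free RNA to it was not tested.

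Nlgn1 and Nrxn2 behaved otherwise in astrocytes. Nlgn1 stood at 2798 and 2713 CPM in male and 3318 and 2335 CPM in female astrocytes, and its log2 fold over Gad nuclei was -0.63 ± 0.10 (SE, adjusted p = 2.74e-05). That was 0.675 to 0.732 of its Gad level, above the marker ratio in every library. Nrxn2 stood at 0.894 to 0.965 of its Gad level in astrocytes and did not pass the test (log2 fold -0.23 ± 0.10 SE, adjusted p = 0.0752). Nlgn3 averaged 38.5 ± 19.3 CPM in astrocytes and 30.2 ± 11.8 CPM in Gad nuclei (SD, n = 4 libraries each) and did not pass. Nlgn2 passed in astrocytes (log2 fold -0.46 ± 0.18 SE, adjusted p = 0.0343), but 8 of 9 alternatives ended this call, among them each left-out library, with adjusted p from 0.011 to 0.264 over all 9. Nxph1 fell in astrocytes (log2 fold -1.46 ± 0.25 SE, adjusted p = 5.8e-05), and the value was -0.96 without male 1, -2.35 with class thresholds raised by 1 UMI and -2.58 after thinning. Nxph2 was lower there too by the test (-1.62 ± 0.33 SE, adjusted p = 0.000381), with -2.87 at raised thresholds. It had only 11 and 4 UMIs in male and 6 and 1 UMIs in female astrocytes. In female 1 Nxph2 stood at 1.17 times its Gad level.

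Oligodendrocytes and microglia held less of nearly every member. Nlgn1 averaged 1922 CPM in oligodendrocytes and 1718 CPM in microglia, with log2 folds over Gad nuclei of -1.07 ± 0.08 and -1.53 ± 0.14 (SE). Nxph1, Nlgn2, Nrxn2 and Nxph2 fell in both, with log2 folds from -0.33 (Nrxn2) to -1.85 (Nxph2) in oligodendrocytes and from -0.85 (Nlgn2) to -2.23 (Nxph2) in microglia. The Nxph2 value in microglia rested on 6 and 1 UMIs in males and 1 and 2 UMIs in females. In oligodendrocytes the log2 folds after thinning were -1.69 for Nxph1 and -1.46 for Nlgn2 (-0.62 without thinning), and in microglia Nlgn2 was -0.55 without TMM scaling and Nxph2 was -1.34 at raised thresholds. Nlgn3 fell in microglia (log2 fold -0.78 ± 0.23 SE, adjusted p = 0.00907) and was not called under 5 of 9 alternatives, among them without male 1 (adjusted p = 0.0561) and without male 2 (adjusted p = 0.0524). The call of Nrxn2 in oligodendrocytes was lost when nuclei were thinned before classing (adjusted p = 0.0866). In oligodendrocytes Nxph4 rested on 23, 12, 2 and 18 UMIs in male 1, male 2, female 1 and female 2, or 6.55, 3.94, 0.658 and 5.44 CPM, against 1.26, 1.37, 0.467 and 1.79 CPM in Gad nuclei of the same libraries. Each oligodendrocyte value was above the Gad value of its library, and the log2 fold was 1.74 ± 0.32 (SE, adjusted p = 0.000727).

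Among the neuronal classes, the Slc17a class had the highest Nxph4 and Nxph1. Within the Gad class, however, Moxd1 nuclei held more Nxph1 (mean 2934 CPM) than Slc17a nuclei (mean 976 CPM). The Moxd1 mean was also above that of OPCs (2215 CPM), with overlapping ranges. In Slc17a nuclei 4 of 8 tested members passed, where 15.2% of all genes did: Nxph4 and Nxph1 rose and Nrxn3 and Nxph2 fell. Nxph4 stood at 14.6 and 17.4 CPM in male and 13.0 and 14.1 CPM in female Slc17a nuclei, against 1.26 and 1.37 CPM in male and 0.467 and 1.79 CPM in female Gad nuclei. The groups did not overlap, and no other class reached the Slc17a range. The log2 fold was 3.63 ± 0.21 (SE, adjusted p = 3.75e-11), on 78 and 95 UMIs in males and 12 and 19 UMIs in females. Nxph1 stood at 845 and 873 CPM in male and 1142 and 1043 CPM in female Slc17a nuclei, above all Gad values, with a log2 fold of 1.20 ± 0.11 (SE, adjusted p = 1.98e-08), which was 0.64 after thinning.

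Nrxn3 had the opposite pattern in the same nuclei. It stood at 2531 and 2439 CPM in male and 2588 and 2081 CPM in female Slc17a nuclei, against 8239 and 7991 CPM in male and 8989 and 6583 CPM in female Gad nuclei. The ratio lay between 0.288 and 0.316 in all 4 libraries, while the neuronal markers stood at 0.797 to 0.914 of their Gad level. The log2 fold was -1.69 ± 0.05 (SE, adjusted p = 1.07e-15). The Nrxn3 range of Slc17a nuclei overlapped that of microglia (mean 2483 CPM). Nxph2 also fell in Slc17a nuclei (log2 fold -1.94 ± 0.14 SE, adjusted p = 1.44e-09), a call that was lost when nuclei were thinned before classing (log2 fold -0.59, adjusted p = 0.912). It had 51 and 29 UMIs in male and 2 and 5 UMIs in female Slc17a nuclei. Nrxn2, Nlgn1, Nlgn2 and Nlgn3 did not pass in this class, with log2 folds between -0.17 and 0.04.

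Cholinergic nuclei stood out by low Nlgn1. Here 5 of 8 tested members passed, where 25.0% of all genes did. Nlgn1 stood at 1525 and 1689 CPM in male and 1930.3 and 916 CPM in female cholinergic nuclei, below every Gad value. Its log2 fold was -1.34 ± 0.07 (SE, adjusted p = 7.17e-13), and the cholinergic class had the lowest mean of the 7 classes, with a range that overlapped those of microglia and oligodendrocytes. The neuronal markers were above their Gad level in the cholinergic nuclei of every library, 1.26 times in male 1 as the lowest. Nxph1 fell too (log2 fold -1.40 ± 0.10 SE, adjusted p = 1.89e-10), to 240 and 113 CPM in male and 202 and 92.2 CPM in female cholinergic nuclei. Nrxn3 was slightly lower than in Gad nuclei, at 6445 and 5958 CPM in male and 6866 and 5532 CPM in female cholinergic nuclei (log2 fold -0.28 ± 0.06 SE, adjusted p = 0.000724, and -0.43 after thinning). Nxph2 had no UMI in the cholinergic nuclei of male 2 and female 2, where a count of 3 in 86 and 78 nuclei would allow a share of nuclei with a UMI of up to 3.49% and 3.85%. Its log2 fold of -3.35 ± 0.40 (SE) became -2.62 without male 2 and -4.15 without female 1. Nrxn2 passed at a log2 fold of 0.24 ± 0.07 (SE, adjusted p = 0.0134), and this call was lost under 5 of 9 alternatives, among them without male 1 (adjusted p = 0.126) and without female 1 (adjusted p = 0.0687).

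Across the subclasses of Gad nuclei, the neurexophilins Nxph1 and Nxph2 varied most, and the neurexins and neuroligins little. The Drd1 and Sst subclasses held 18 and 5 nuclei in female 1 and were not tested, since at least 20 nuclei per library were asked for. In the tested subclasses 4 of 8 members passed for Moxd1, 2 of 8 for Npsr1, 2 of 8 for Drd2 and 3 of 8 for Tshz1, against 13.0%, 6.89%, 15.9% and 9.81% of all genes. Nxph1 and Nxph2 passed in all 4 subclasses, both higher in the Moxd1 and Npsr1 nuclei and both lower in the Drd2 and Tshz1 nuclei.

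Because these 2 genes moved together across the tested Gad subclasses, the 250 bases before their RefSeq transcription start (build GRCm38.p6) are shown, with each CG dinucleotide in capitals. In OPCs and Slc17a nuclei they moved in opposite directions, with Nxph1 higher and Nxph2 lower than in Gad nuclei. The window of Nxph1 lies at chr6:8949769-8950018 on the plus strand and that of Nxph2 at chr2:23320996-23321245 on the plus strand. GENCODE vM21 starts Nxph1 at chr6:8948431, so its window lies inside the gene as annotated there.
Nxph1: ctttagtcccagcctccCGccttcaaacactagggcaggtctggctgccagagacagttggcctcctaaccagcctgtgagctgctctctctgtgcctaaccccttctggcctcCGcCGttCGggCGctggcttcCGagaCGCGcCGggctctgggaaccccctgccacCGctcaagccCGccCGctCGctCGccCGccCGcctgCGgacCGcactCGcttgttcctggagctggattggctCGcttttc
Nxph2: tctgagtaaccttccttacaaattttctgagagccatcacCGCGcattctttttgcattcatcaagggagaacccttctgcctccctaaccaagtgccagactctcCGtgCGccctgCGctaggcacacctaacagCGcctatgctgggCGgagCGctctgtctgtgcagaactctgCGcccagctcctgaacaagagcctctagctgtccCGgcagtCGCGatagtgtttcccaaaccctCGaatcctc
Nxph1 has 20 CG dinucleotides and a G and C content of 66.8% in its window, and Nxph2 has 13 and 55.6%. Over 32851 RefSeq windows of this length the medians were 6 and 52.4%, 17.9% held at least as many CG dinucleotides as Nxph1, and 31.5% at least as many as Nxph2. The homeodomain core TAATTA, searched on both strands and present in 4.84% of the windows, is in neither sequence. The SOX motif AACAAT, searched as ATTGTT on the other strand and present in 9.42% of the windows, is in neither sequence as well. These counts describe letters in the windows and not sites of binding.

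Nxph1 stood at 2403 and 2195 CPM in male and 3869 and 3270.5 CPM in female Moxd1 nuclei, against 398 and 375 CPM in the other male Gad nuclei and 439 and 239 CPM in the other female Gad nuclei. The subclass was 6.04 and 5.86 times the other Gad nuclei in males and 8.81 and 13.7 times in females, so no values overlapped. Its log2 fold was 2.96 ± 0.11 (SE, adjusted p = 1.42e-27). After thinning to 2000 UMIs, 74.5% and 68.6% of male and 90.7% and 86.0% of female Moxd1 nuclei had an Nxph1 UMI. The OPC markers were measured in this subclass too. Vcan averaged 23.0 CPM in Moxd1 nuclei, 16.0 CPM in all Gad nuclei and 694 CPM in OPCs. Neu4 averaged 2.44 CPM in Moxd1 nuclei, 0.672 CPM in all Gad nuclei and 149 CPM in OPCs. Sox6 averaged 1257 CPM in Moxd1 nuclei, 238 CPM in all Gad nuclei and 1558 CPM in OPCs. Summed with Olig1, these 4 markers stood at 1129 to 1255 CPM in male and 1060 to 1692 CPM in female Moxd1 nuclei. In OPCs the sum was 2868 to 2907 CPM in males and 1940 to 2203 CPM in females. Lhx6, a transcription factor of interneurons, averaged 60.5 CPM in Moxd1 nuclei and 15.1 CPM in Sst nuclei. The part of OPCs in the Moxd1 values was not tested.

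Nxph2 in the Moxd1 subclass stood at 52.7 and 54.2 CPM in males and at 15.6 and 59.2 CPM in females, against 32.1 and 25.9 CPM in the other male and 7.02 and 9.67 CPM in the other female Gad nuclei. It was higher in 4 of 4 libraries, with female 1 low in both groups, and the log2 fold was 1.01 ± 0.14 (SE, adjusted p = 1.75e-07). In Moxd1 nuclei Nlgn1 was lower (log2 fold -0.31 ± 0.09 SE, adjusted p = 0.0128) and so was Nrxn2 (log2 fold -0.24 ± 0.08 SE, adjusted p = 0.0474). Both calls were fragile: that of Nlgn1 was lost with DESeq2 (adjusted p = 0.188) and without female 1 (0.133) or female 2 (0.185), and that of Nrxn2 without male 2 (0.322), female 1 (0.116) or female 2 (0.109).

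Npsr1 nuclei, which carry the neuropeptide S receptor, shared the direction for both genes. Nxph1 stood at 944 and 851 CPM in male and 848 and 624 CPM in female Npsr1 nuclei, against 469 and 428 CPM in the other male and 479 and 279 CPM in the other female Gad nuclei. It was 1.77 to 2.24 times the other Gad nuclei in the 4 libraries, with a log2 fold of 1.02 ± 0.06 (SE, adjusted p = 1.22e-14). Nxph2 was 1.43 to 2.86 times the other Gad nuclei (log2 fold 0.93 ± 0.12 SE, adjusted p = 1.1e-06). Between the subclasses themselves, the Nxph1 range of Moxd1 nuclei lay wholly above that of Npsr1 nuclei. The Nxph1 ranges of Npsr1 and Sst nuclei overlapped.

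**Figure D3:**
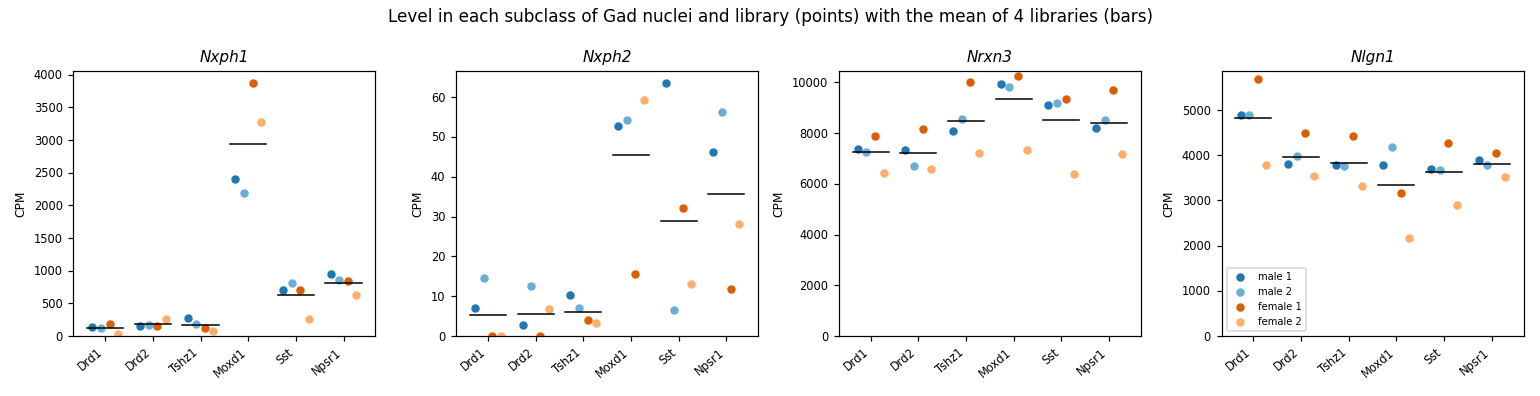
Level (CPM, linear axis) of Nxph1, Nxph2, Nrxn3 and Nlgn1 in the 6 subclasses of Gad nuclei. Points are libraries, males left of females, and bars are means of 4 libraries. Nxph1 lies above 2000 CPM in every Moxd1 value and below 300 CPM in every Drd1, Drd2 and Tshz1 value, whereas the Nrxn3 ranges of all subclasses overlap.

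Drd2 nuclei, which had the highest Penk and Adora2a means of the subclasses, had 149 and 168 CPM of Nxph1 in males and 161 and 260 CPM in females, against 517 and 474 CPM in the other male and 511 and 293 CPM in the other female Gad nuclei. The log2 fold was -1.25 ± 0.13 (SE, adjusted p = 1.82e-10), and it was -0.59 when nuclei meeting several subclass thresholds were kept. Tshz1 nuclei had 281 and 188 CPM in males and 121 and 81.6 CPM in females, with a log2 fold of -1.33 ± 0.12 (SE, adjusted p = 1.28e-10). Nxph2 was lower in Drd2 nuclei (log2 fold -1.87 ± 0.25 SE) and in Tshz1 nuclei (-1.79 ± 0.17). It had 9 and 40 UMIs in male and 0 and 5 UMIs in female Drd2 nuclei. In Tshz1 nuclei it had 41 and 23 UMIs in males and 2 and 2 UMIs in females. In Drd2 nuclei the Nxph2 log2 fold became -1.13 without male 1 and -2.98 without male 2, and DESeq2 did not call it (adjusted p = 0.0909). The untested Drd1 nuclei stood at 140 and 126 CPM of Nxph1 in males and at 182 and 27.4 CPM in females. Nrxn2 was called higher in Tshz1 nuclei (log2 fold 0.25 ± 0.08 SE, adjusted p = 0.0364), a call that was lost without male 1 (adjusted p = 0.312) or male 2 (0.455). For Nrxn3, Nlgn2, Nlgn3 and Nxph4 no subclass passed the test, with log2 folds from -0.45 to 0.26.

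Nxph3 was nearly absent from these nuclei. In all 7 classes together it had 42 UMIs, in 40 of 21926 nuclei (0.182%), and its highest value in any class and library was 2.17 CPM. In astrocytes it had no UMI in any library, and a count of 3 in the 219 and 185 male and the 242 and 173 female astrocytes would allow shares of up to 1.37% and 1.62% in males and 1.24% and 1.73% in females.

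The partners of these genes were followed as a list of 24: other ligands of neurexins such as the Lrrtm, Cbln and C1ql genes, the calsyntenins, the MDGA proteins that bind neuroligins, and scaffolds such as gephyrin (Gphn). In OPCs 5 of 23 tested partners rose and 7 fell, where 20.3% of all genes rose and 20.4% fell, with a median log2 fold of -0.11 beside -0.01 over all genes tested. C1ql3, a secreted C1q-like protein, rose by a log2 fold of 2.81 ± 0.29, C1ql2 by 4.33 ± 0.71 on 4 and 3 UMIs in male and 1 and 5 UMIs in female OPCs, and Cask, an intracellular binder of neurexins, by 1.19 ± 0.08 (SE). Clstn2, Clstn3 and Dlg4 had the lowest called log2 folds there, -1.37, -0.82 and -0.61. In Slc17a nuclei 8 of 22 rose and 1 fell, where 8.07% of all genes rose and 7.10% fell, led by C1ql3 (2.33), Mdga1 (1.11) and Cbln2 (0.99), with Grid1 at -0.38. In cholinergic nuclei 7 of 22 rose and 7 fell, where 12.2% of all genes rose and 12.8% fell. Mdga1, which binds neuroligins and hinders their pairing with neurexins, led with a log2 fold of 1.45 ± 0.12, followed by Clstn2 (1.44) and Lrrtm1 (1.10). Cbln4 (-1.29) and Gphn (-0.36) were among those that fell.

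Partners were mostly lower in the remaining glia. In astrocytes 3 of 22 rose and 14 fell, in oligodendrocytes 1 of 22 rose and 16 fell, and in microglia none of 22 rose and 16 fell. Of all genes, 22.0% rose and 27.3% fell in astrocytes, 29.5% rose and 30.3% fell in oligodendrocytes, and 20.8% rose and 23.4% fell in microglia. Mdga2 (0.31), Adgrl1 (0.30) and Gphn (0.26) rose in astrocytes and C1ql3 (0.81) in oligodendrocytes. Lrrtm4 had log2 folds of -2.39 in astrocytes, -1.35 in oligodendrocytes and -1.74 in microglia. The median over the list was -0.88, -0.68 and -0.94 in these 3 classes, beside -0.10, -0.01 and -0.10 over all genes tested. Within the Gad class, the shares of all genes that rose and fell were 5.50% and 7.54% in Moxd1 nuclei, 3.04% and 3.85% in Npsr1 nuclei, 5.40% and 4.42% in Tshz1 nuclei and 8.84% and 7.07% in Drd2 nuclei. Among the partners, none of 22 rose and 7 fell in Moxd1 nuclei, where Mdga1 had a log2 fold of -1.89 ± 0.22, Grid1 of -0.60 and Clstn2 of -0.52. In Npsr1 nuclei 2 rose and 3 fell, with Cbln4, a secreted bridge between neurexins and their partners, at 15.7 and 24.6 CPM in male and 14.1 and 22.0 CPM in female Npsr1 nuclei and a log2 fold of 1.89 ± 0.17. Apba1 rose there (0.25), and Mdga1 (-0.95), Lrrtm3 (-0.36) and Igsf9b (-0.28) fell. In Tshz1 nuclei 3 partners rose, Mdga1 (1.56), Lrrtm3 (0.46) and Clstn1 (0.39), and 4 fell, among them Igsf9b (-0.42) and Grid1 (-0.32). In Drd2 nuclei 8 rose, among them Lrrtm3 (0.40) and Dlg4 (0.36), and Clstn2 (-0.67), Mdga1 (-0.61) and Lrrtm1 (-0.47) fell.

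Genes whose levels over the 6 other classes and the 6 Gad subclasses followed a member most closely were sought among 10170 genes of at least 20 CPM, by Pearson's r of log2(CPM + 1) over these 12 points. The points share libraries, so r is a description. Nxph1 was closest to Sox5os4 (0.95), Tox3 (0.92) and Itga8 (0.92). Nlgn2 was closest to Lnx1 (0.96), Grin3a (0.91) and Myt1 (0.90), and Nrxn2 to Cacng4 (0.89), Nlgn2 (0.89) and Vcan (0.88). Nrxn3 was closest to Gad1 (0.95), Mfsd13a (0.93) and Gad2 (0.93), of which Gad1 and Gad2 are genes of the class rule. Nlgn1 was closest to Acp1 (0.94), Nlgn3 to Tpm1 (0.92) and Nxph2 to Gm31218 (0.88).

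The sexes were compared in the 7 classes and in the 4 subclasses with enough nuclei. None of 76 tests of a member passed the test, and 11 (14.5%) had an unadjusted p under 0.05, beside 11.7% of the tests of all genes. Few genes passed at all with edgeR: 0.0498% of those tested in cholinergic nuclei, 0.00545% in Gad nuclei, 0.0631% in Slc17a nuclei, 0.0555% in astrocytes, 0.023% in oligodendrocytes, 0.095% in OPCs and 0.0503% in microglia, and 0.0639%, 0.0271%, 0.31% and 0.0261% in the Drd2, Tshz1, Moxd1 and Npsr1 subclasses. DESeq2 called 1 of the 76, Nxph2 in Gad nuclei, where it called 4.8% of all genes. Sex went together with depth, barcode set, the software version in the file headers and the gene list, and these cannot be told apart from it. The 2 females also differed from each other in version and gene list. Over 18345 genes in Gad nuclei, the SD of the log2 difference between the females was 1.07, against 0.26 between the males.

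Nxph2 in Gad nuclei stood at 33.1 and 27.2 CPM in males and at 7.16 and 10.5 CPM in females. The groups did not overlap, and the log2 fold of males over females was 1.85 ± 0.23 (SE, unadjusted p = 0.00131 and adjusted p = 0.286 by edgeR). DESeq2 called this difference (adjusted p = 4.06e-07), edgeR called it without female 1 (1.65e-66) and without female 2 (5.19e-17), and the other alternatives gave adjusted p from 0.253 to 1.00. With a single female left the spread comes from the males alone, and 51.1% of all genes were called without female 1 and 56.3% without female 2. After thinning to 2000 UMIs, 4.48% and 3.75% of male and 1.22% and 2.11% of female Gad nuclei had an Nxph2 UMI. In Npsr1 nuclei Nxph2 stood at 46.4 and 56.2 CPM in males and at 11.9 and 28.1 CPM in females (log2 fold 1.41 ± 0.36 SE, adjusted p = 0.227). With the replicate number as a block it was called (adjusted p = 0.0187), as were 3.76% of all genes there. It was also called without female 1 (adjusted p = 0.0493) and without female 2 (0.000182), where 8.74% and 15.3% of all genes were. The Nxph2 log2 fold was above 0 in 7 of 7 tested comparisons, from 0.52 to 1.85. These were the Gad, Slc17a and oligodendrocyte classes and 4 subclasses that are part of the Gad class. All share the same 4 libraries.

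Nlgn3 was above 0 in 11 of 11 classes, with log2 folds from 0.07 to 1.71, and 5 of these had an unadjusted p under 0.05. In Moxd1 nuclei Nlgn3 stood at 40.4 and 41.8 CPM in males and at 6.23 and 18.8 CPM in females. These values rested on 112 and 101 UMIs in males and on only 2 and 7 UMIs in females. The Nlgn3 log2 fold there was 1.71 ± 0.43 (SE, adjusted p = 0.131). With the replicate number as a block it was called (adjusted p = 0.0308), as were 3.37% of all genes there. It was also called without female 2 (log2 fold 2.68, adjusted p = 0.00423) and without a filter on low counts (adjusted p = 0.00474), where 9.25% and 2.74% of all genes were. Female 1 was the lowest library in all 7 classes. The annotated gene Gm21986 lies on the same strand at chrX:101295839-101321348 and covers 82.8% of Nlgn3 (chrX:101299168-101325963, plus strand, GRCm38), and it is in the gene list of female 1 alone. Over all barcodes of female 1, Gm21986 had 26 UMIs and Nlgn3 had 797. In Gad nuclei the Nlgn3 log2 fold was 0.79 ± 0.45 (SE, adjusted p = 0.453) with all libraries, 0.38 without female 1 and 1.57 without female 2. The part of the overlapping gene in these values was not tested.

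Nxph1 differed in sign among classes. In astrocytes it stood at 69.4 and 137 CPM in males and at 308 and 249 CPM in females, with a log2 fold of -1.40 ± 0.35 (SE, adjusted p = 0.329), which was -0.09 when class thresholds were raised by 1 UMI. In Tshz1 nuclei it stood at 281 and 188 CPM in males and at 121 and 81.6 CPM in females, with a log2 fold of 1.27 ± 0.30 (SE, adjusted p = 0.365). The groups did not overlap in either case. Nrxn3 lay between -0.48 and 0.19, Nrxn2 between -0.57 and 0.11, Nlgn1 between -0.32 and 0.60 and Nlgn2 between -0.74 and 0.18 on the log2 scale, with no adjusted p under 0.441. Of the partners, 0 of 218 tests passed and 20 (9.17%) had an unadjusted p under 0.05.

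**Figure D4:**
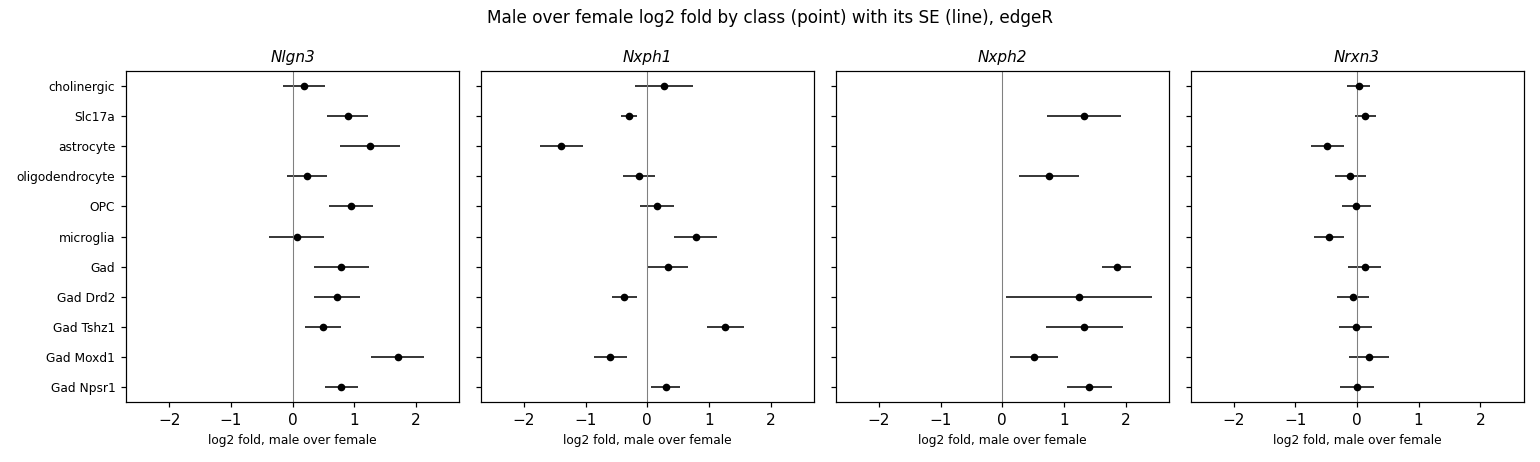
Log2 fold of males over females (point) with its SE (line) by edgeR for Nlgn3, Nxph1, Nxph2 and Nrxn3 in 7 classes and 4 Gad subclasses. Classes where a gene was too low to be tested have no point. Nlgn3 and Nxph2 lie above 0 throughout, Nxph1 lies on both sides and Nrxn3 stays between -0.48 and 0.19.

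Whether a difference between a class and the Gad class itself differed between the sexes was tested as an interaction, in which a shift shared by both classes of a library cancels. Nxph1 passed in 2 classes, 1 of 8 members in the Slc17a class and 1 of 8 in astrocytes, where 0.79% and 1.74% of all genes passed. In the other classes no member passed, and 0.273% of all genes did in cholinergic nuclei, 1.43% in oligodendrocytes, 1.2% in OPCs and 1.78% in microglia. The edgeR fit shares its estimate of spread among genes, so the SEs here can understate how far the Nxph1 ratios spread between libraries. The ratio of Nxph1 in Slc17a nuclei to Gad nuclei was 1.70 and 1.91 in males and 2.30 and 3.57 in females, without overlap. In log2 units that was 0.77 and 0.94 in males and 1.20 and 1.84 in females. The log2 difference, male over female, was -0.65 ± 0.09 (SE, adjusted p = 9.34e-08). Without female 2, the library with the lowest Nxph1 in Gad nuclei, it was -0.24 (adjusted p = 0.0642), without male 1 it was -0.57 (adjusted p = 0.289), and without female 1 it was -0.99. DESeq2 (adjusted p = 0.206), raised thresholds (0.0548) and thinning (1.00) also ended this call. The ratio in astrocytes was 0.140 and 0.300 in males and 0.620 and 0.853 in females. In log2 units that was -2.84 and -1.74 in males and -0.69 and -0.23 in females. The log2 difference in astrocytes was -1.71 ± 0.19 (SE, adjusted p = 2.34e-15). It rested on 69 and 109 UMIs in male astrocytes, became -2.35 without male 2, and was not called when class thresholds were raised by 1 UMI (-0.15, adjusted p = 0.983) or when nuclei were thinned before classing (-0.85, adjusted p = 0.579). The neuronal markers in astrocytes moved the same way, at 0.199 and 0.152 of their Gad level in males and 0.308 and 0.292 in females, and their part in this result was not tested. In OPCs, where Nxph1 was highest, the ratios were 4.90 and 4.79 in males and 5.24 and 5.65 in females, and the interaction did not pass (adjusted p = 0.927). Of the partners, 3 of 135 interaction tests passed.

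**Figure D5:**
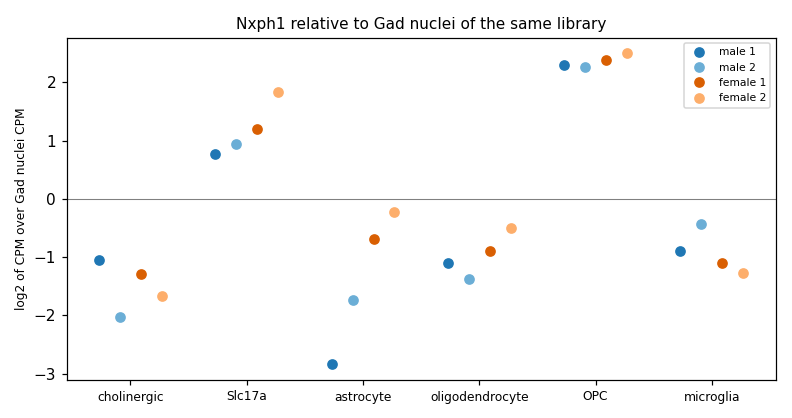
Log2 of the Nxph1 CPM in each class over the Nxph1 CPM in Gad nuclei of the same library. Points are libraries, males left of females. All 4 libraries lie above 0 in OPCs and Slc17a nuclei, and the males lie below the females in Slc17a nuclei, astrocytes, oligodendrocytes and OPCs, of which the first pair passed the interaction test.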

How the data were processed

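The authors deposited, per library, whole-number counts of UMIs per gene and barcode. The tools named are Cell Ranger 6.0.1 and Seurat 5, with the build mm10, per the submitters' processing notes. Per the file headers, however, Cell Ranger 7.0.0 made the matrix of female 1, version 7.2.0 that of female 2, and version 9.0.1 the male matrices. These versions, the gene lists and the depth (median 10353 and 9966 UMIs per kept nucleus in males, 4093 and 3791 in females) go with sex. The females also differ from each other, with 55357 genes listed in female 1 and 32285 in female 2, against 33696 in each male. The males shared 23 barcodes, the females 35, and no male library shared any with a female one.

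Counts over 31899 common genes were summed per library and class, and CPM was computed from these sums. Differences were tested with edgeR 4.0.16 (quasi-likelihood, TMM, filterByExpr, two-sided, threshold 0.05 after Benjamini-Hochberg adjustment over all genes tested) in R 4.3.3, with the library as a block for class, subclass and interaction tests. DESeq2 1.42.0 was an alternative, beside other scaling, filters, thresholds, thinning and left-out libraries. No doublet caller was run, nuclei of 2 or more classes were dropped, and Gad nuclei of several subclasses were kept out of the subclasses. The members and the partner list were chosen with earlier results of these data known. All members are named, and partners were named if they passed, or the 3 largest in each direction where over 6 did; a few genes are not reported here. Floors (3 counts) cover counting error only. On simulated data with 200 genes changed 4-fold, 197 were recovered for sex in Gad nuclei, 200 for Slc17a over Gad, 200 for Moxd1 and 130 for the interaction. Recovery of the 9 members at their own UMI counts and their own spread between libraries was not tested. Coordinates are from GENCODE vM21 (GRCm38), and 5 of 9 members had a RefSeq promoter. How reads over 2 genes or on the opposite strand were counted is not stated, which bears on Gm14964 and Slc22a12 (opposite strand, in Nrxn2), A830092H15Rik (opposite, Nlgn1) and Gm37573 (same strand, in Nlgn1).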

Additional observations from a re-analysis of the deposited data

Results flagged for a closer look

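Nxph1 was singled out because its difference from Gad nuclei differed between the sexes by the interaction test: the log2 difference, male over female, was -0.65 in Slc17a nuclei and -1.71 in astrocytes. Among the partners the same test picked out Lrrtm1 in cholinergic nuclei (-1.44), which stood at 19.3 and 17.2 CPM in males and at 264 and 45.1 CPM in females, against 17.2 and 16.7 CPM in male and 67.0 and 29.4 CPM in female Gad nuclei. It also picked out Lrrtm3 (-0.72) and Lrrtm4 (-0.75) in astrocytes, where Lrrtm4 stood at 625 and 640.3 CPM in males and at 1236 and 935 CPM in females, against 3965 and 3998 CPM in male and 4347 and 3542 CPM in female Gad nuclei. Sex cannot be told apart from depth, barcode set and gene list in these results.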

How the results depend on the processing

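Of 48 differences called between classes, between subclasses or as an interaction, 37 kept their call under all alternatives run, 11 lost it under at least 1 and none reversed. Leaving out 1 library gave 32 to 37 called class differences (35 with all), 9 to 15 subclass differences (11 with all), 0 to 37 sex differences (0 with all, 37 without female 1 and 32 without female 2) and 2 to 6 interactions (2 with all). With 1 female left, the spread is taken from the males alone, and 9999 and 11102 of all genes were called in Gad nuclei. Calls of sex differences numbered 1 with DESeq2 and 3 without a filter on low counts, beside 0 of 76 tests in the main fits. Interactions numbered 1 with DESeq2, 4 without the filter and 1 with raised thresholds, beside 2 of 48. Without the filter, sex tests called 585 of 20560 genes in Tshz1 nuclei and 297 of 19051 in astrocytes, but 0 of 20456 in Drd2 nuclei. The main fits called 3 of 11054, 5 of 9012 and 7 of 10951. Interaction tests in astrocytes called 56 of 17383 genes with DESeq2 and 53 of 16205 with raised thresholds, beside 303 of 17383. The number in the titles as a replicate block gave 2 sex calls, Nlgn3 in Moxd1 and Nxph2 in Npsr1 nuclei, where it called 348 and 432 of all genes. Same-numbered libraries had correlated deviations (0.11), but 2 pairs cannot show pairing. Uncalled sex differences in Gad nuclei changed sign. Nrxn2 became 0.028 without the filter and 0.039 after thinning. Leaving out 1 library gave log2 folds from -0.12 to 0.12 for Nrxn2, -0.12 to 0.52 for Nrxn3, -0.14 to 0.55 for Nlgn1, -0.14 to 0.037 for Nlgn2, -0.029 to 0.92 for Nxph1 and -0.23 to 1.52 for Nxph4, with the lowest of Nrxn3, Nlgn1 and Nxph1 and the highest of Nlgn2 and Nxph4 without female 2. Thinning left every subclass with under 20 nuclei in at least 1 library, so it gave no value there.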
